A study of Homo sapiens with 12 samples.

Results

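FG is an established human pancreatic carcinoma cell line. The arrays described here were chosen by their labels: the 3 FG arrays from hypoxic growth and the 3 from normoxic growth, 6 of the 12 arrays of the series. The other 6 arrays hold L3.6pl, a second pancreatic carcinoma line, and the series title sets the lines against each other by metastatic potential. All cultures of both lines began from frozen cells that were not passaged further and grew in DMEM with foetal bovine serum to near confluence. For FG hypoxia, nitrogen replaced air for the last 24 h so that oxygen fell to 1%. For FG normoxia the cultures were left untreated, and the labels give no oxygen value for them. No genetic change is labelled in either group, and FG is 1 line, so the values describe this line alone. The labels do not say whether each array of a group had a culture of its own, so p-values measure only the spread between these arrays, which may be technical.

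Cells sense oxygen through prolyl hydroxylases of the EGLN family. With enough oxygen these enzymes mark the HIF alpha subunits for destruction, and when oxygen is short HIF alpha pairs with ARNT and binds hypoxia response elements that share the core letters ACGTG or GCGTG. Its known targets move glucose into glycolysis, restrain mitochondria, draw in blood vessels and remodel the matrix, and in pancreatic cancer, which is known for poor oxygen supply, they are of long-standing interest. Low oxygen also reaches transcription through routes with no HIF, among them stress kinases, the integrated stress response and the many dioxygenases that need oxygen as a substrate.

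Expression was read as RMA intensities on a linear scale, and values below are log2 intensities for 19775 genes, each from 1 probe set. Arrays of the same FG group correlated across genes with a Pearson's r of 0.974 to 0.995, a value taken over genes that are not independent of each other. Pairs of a hypoxia and a normoxia array ran from 0.963 to 0.977, so the ranges overlapped. The lowest value within a group was that of normoxia replicates 1 and 3. In a principal component analysis of the 6 arrays, the first component (54.9% of the variance) held the hypoxia arrays from -38.9 to -27.3 and the normoxia arrays from 31.5 to 36. The second (27.0%) set FG normoxia replicate 1 at -44.7 apart from normoxia replicates 2 and 3 at 14.6 and 30.9. Results are therefore also given without that array. Of 9 ductal epithelial markers measured, KRT18, KRT19, EPCAM and KRT8 had the highest medians over the 6 arrays (13.22, 12.67, 12.25 and 11.84), while CLDN4 was at 7.37 and CEACAM6 at 5.28, the lowest. Of 4 acinar markers, 4 endocrine markers and 5 leukocyte markers measured, no median exceeded 5.84, and none of those 13 was called. Of 5 endothelial markers, PECAM1 (6.87) and TEK (6.15) were the highest and the others were at or below 4.69, and none was called. COL3A1 and COL1A1, listed as fibroblast markers, stood at medians of 10.81 and 10.21, while COL1A2 was at 5.52 and DCN, LUM, PDGFRB and FAP stood between 2.62 and 5.28. COL1A1 was at 1.18 ± 0.36 (adjusted p = 0.0626) and COL3A1 at -0.39 ± 0.38 (adjusted p = 0.629), and no fibroblast marker was called.

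Hypoxia raised 838 genes (4.24% of those tested) and lowered 1279 (6.47%), which is 10.7% in all, at a Benjamini-Hochberg adjusted p below 0.05 in limma. The falls were more numerous, and fewer of them reached 4-fold. Among the rises, 411 were at least 2-fold, 108 at least 4-fold and 24 at least 8-fold, and among the falls the counts were 439, 20 and 0. The median log2 change was 0.98 for the called rises and -0.83 for the called falls, against -0.03 over all genes. With cyclic loess on the same values the counts were closer, at 1018 higher and 1051 lower, and changes of at least 2-fold then numbered 458 higher and 340 lower. In bulk RNA, fewer cells with a transcript and less of it per cell cannot be told apart. The hypoxia arrays did not overlap the normoxia arrays in 2111 of the 2117 called genes, and in 27.9% of all genes tested, so a lack of overlap alone says little with 3 arrays against 3. Of the called genes, 1444 had more than 1 probe set. In 835 of these all probe sets had the same sign, and in 70 a probe set was called in the opposite direction. Other probe sets are described below for some genes only.

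Without normoxia replicate 1, 856 genes were called higher (4.33%) and 1218 lower (6.16%). Of these, 682 rises and 924 falls were called with all arrays as well, and no called gene turned its sign. The number of calls depended on the other arrays too. Without FG hypoxia replicate 2, 481 genes were called higher and 548 lower, and without FG normoxia replicate 2 the counts were 529 and 796. Falls numbered 729 without FG hypoxia replicate 1 and 831 without FG normoxia replicate 3. A core of 444 rises and 502 falls was called with all arrays and with each of the 6 FG arrays left out in turn. Genes named below as risen or fallen belong to that core unless the text names the array that ends the call. The percent beside a gene list's count is the share of its measured members, to be read beside 4.24% of all genes higher and 6.47% lower. Lists share members, so their counts are not separate results. Textbook HIF targets counted again in other lists include BNIP3, BNIP3L, FAM162A, P4HA1, P4HA2, LOX, KDM3A, KDM4B, PDK1 and INSIG2. Of the list counts below, those of 3 or fewer moved by up to 3 genes, in some lists to 0, when single FG arrays were left out, apart from mitosis, given in its place. Larger counts are given with each array that moved them by over 1.5 times. Changes are log2 fold changes, hypoxia over normoxia, ± standard error, with 3 arrays in each group.

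**Figure D1:**
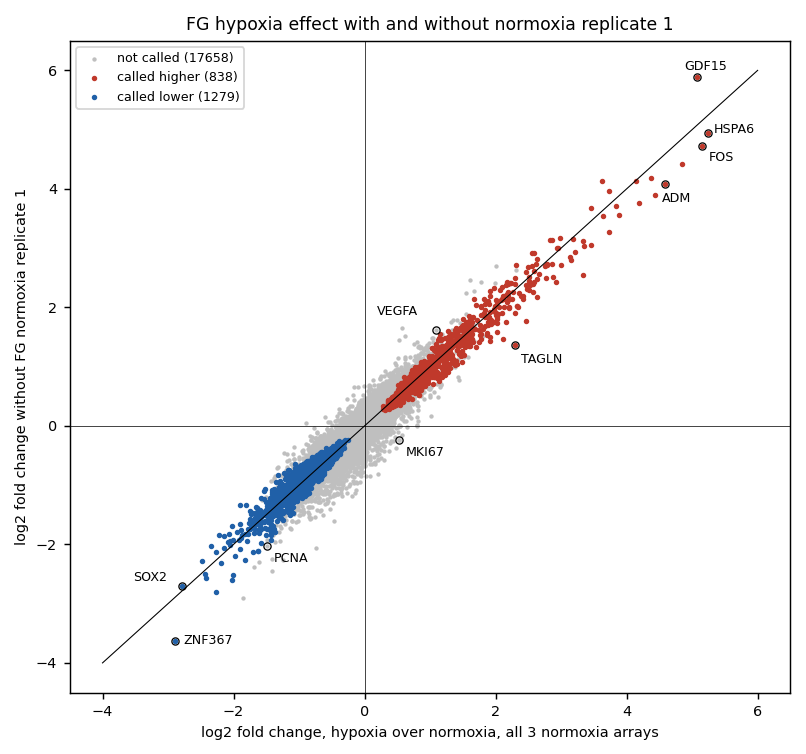
Each point is 1 of 19775 genes, with the log2 fold change of FG hypoxia over normoxia from all arrays on the x axis and without FG normoxia replicate 1 on the y axis, the line marking equal values. Called genes (red higher, blue lower) keep their sign on both axes, while MKI67, which was not called, lies at 0.53 on one axis and -0.23 on the other.

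Within the oxygen sensing machinery, a feedback enzyme changed. EGLN3, a hydroxylase that HIF induces, was at 6.26, 7.18 and 6.48 in normoxia and 8.56, 9.00 and 9.51 in hypoxia. Every hypoxia array lay above every normoxia array, and the rise was 2.38 ± 0.28 (adjusted p = 0.000638), or 2.19 without normoxia replicate 1. EGLN1, another hydroxylase of the family and also listed as a HIF target, was not called. SIAH1, a ubiquitin ligase that removes EGLN enzymes, rose by 0.91 ± 0.15. HIF1A was bright in all arrays, at 12.09, 11.67 and 11.69 in normoxia and 11.97, 11.64 and 11.49 in hypoxia. Its arrays overlapped and the change was -0.11 ± 0.14 (adjusted p = 0.731). EPAS1, which encodes HIF-2 alpha, was at 0.49 ± 0.38 and ARNT at 0.67 ± 0.21 (adjusted p = 0.52 and 0.0704), neither called. HIF alpha is known to be controlled mainly as a protein, which these arrays do not measure. Of 14 genes listed for HIF subunits and oxygen sensing, 3 were called higher (21.4%) and 0 lower (0%), with or without normoxia replicate 1.

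Histone demethylases of the JmjC class, dioxygenases that use oxygen to strip methyl groups from histones, rose in part. Of 20 measured, 6 were called higher (30%) and 1 lower (5%), with a median of 0.13. KDM3A, a histone H3 lysine 9 demethylase and known HIF target, was at 9.33, 9.84 and 9.10 in normoxia and 11.36, 11.70 and 11.37 in hypoxia, which gives 2.05 ± 0.29. KDM4B rose by 1.69 ± 0.24 with 8 of its 8 probe sets positive, JMJD6 by 1.60 ± 0.23 and KDM6A, which acts on lysine 27, by 0.88 ± 0.15. The hypoxia arrays of all 4 lay above their normoxia arrays. KDM5B and KDM2A, the brightest members that were not called, stood at -0.02 ± 0.26 and 0.12 ± 0.21. The called fall was RIOX1, a ribosomal oxygenase, at -0.91 ± 0.24, and it was not called once FG normoxia replicates 2 or 3 or FG hypoxia replicates 1 or 2 was left out (adjusted p from 0.0946 to 0.146).

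Textbook HIF targets formed the list with the largest share of rises among the 71 lists. Of 34 measured, 29 were called higher (85.3%) and 0 lower (0%), with a median of 1.91. Without normoxia replicate 1 the count was 31, and over the 6 fits with 1 FG array left out it ran from 26 (without FG hypoxia replicate 2) to 31 (without FG normoxia replicate 1). ADM, the vasodilator adrenomedullin, went from 6.65, 8.32 and 7.995 in normoxia to 12.17, 12.49 and 12.06 in hypoxia. POFUT4 (listed in older annotation as FUT11), a fucosyltransferase, was at 5.26, 6.64 and 6.71 in normoxia and 9.96, 9.97 and 9.88 in hypoxia and rose by 3.73 ± 0.42. Its 3 hypoxia arrays nearly coincided, and normoxia replicate 1 was its lowest array. ERO1A, the oxidase that forms disulphide bonds in the endoplasmic reticulum, rose by 2.77 ± 0.24 from 9.05, 9.71 and 10.03 to 12.41, 12.32 and 12.38. BNIP3, a receptor for the removal of mitochondria, went from 8.37, 9.55 and 9.18 to 10.76, 11.57 and 11.78. CXCR4, the receptor for the chemokine CXCL12, was at 8.07, 7.92 and 8.29 in normoxia and 12.22, 12.36 and 12.12 in hypoxia, with no hypoxia array near a normoxia array. VEGFA, the angiogenic growth factor, was at 12.16, 11.005 and 10.15 in normoxia and 12.13, 12.31 and 12.13 in hypoxia. Its normoxia replicate 1 lay far above the other two normoxia arrays, and VEGFA was not called with all arrays (1.08 ± 0.47, adjusted p = 0.195) and was called without that array (1.61, adjusted p = 0.0309). BHLHE40, a circadian repressor, was at 11.49, 10.86 and 10.68 in normoxia and 11.85, 11.85 and 11.73 in hypoxia, with normoxia replicate 1 again the highest of its group, and its change was 0.80 ± 0.27 (adjusted p = 0.0949) and 1.04 (0.0358).

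The letters ACGTG or GCGTG were looked for on both strands in the 250 bases before the start of each gene, in RefSeq promoters of GRCh38.p14. Of 30 textbook HIF targets with a promoter in that table, 23 held them (76.7%), against 58.4% of 670 called rises, 58.8% of 1078 called falls and 50.9% of all 15384 genes tested that had a promoter. The share was thus nearly the same in rises and falls. The promoters of ADM, BNIP3, POFUT4 and PPP1R3C are shown because these genes are among the large rises of HIF targets and glycogen genes. They are written 5′ to 3′ on the strand of the gene and ending at the base before its start, with those letters or their reverse complement in capitals. ADM lies at chr11:10304823-10305072 on the plus strand and holds 1 run 96 bases before the start. BNIP3 lies at chr10:131981924-131982173 on the minus strand and holds 5 runs, the last 99 bases before the start. POFUT4 lies at chr10:73772026-73772275 on the plus strand with 1 run 30 bases before the start, and PPP1R3C at chr10:91633072-91633321 on the minus strand with 3 runs, the last 39 bases before it. The runs CACGTG read the same on both strands. A match is a description of the sequence and not of binding.
ADM: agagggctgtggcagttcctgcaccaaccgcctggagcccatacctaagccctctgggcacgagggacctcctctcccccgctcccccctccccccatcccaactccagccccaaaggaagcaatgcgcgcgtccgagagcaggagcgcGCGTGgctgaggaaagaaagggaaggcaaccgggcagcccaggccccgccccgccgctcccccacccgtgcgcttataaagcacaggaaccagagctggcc
BNIP3: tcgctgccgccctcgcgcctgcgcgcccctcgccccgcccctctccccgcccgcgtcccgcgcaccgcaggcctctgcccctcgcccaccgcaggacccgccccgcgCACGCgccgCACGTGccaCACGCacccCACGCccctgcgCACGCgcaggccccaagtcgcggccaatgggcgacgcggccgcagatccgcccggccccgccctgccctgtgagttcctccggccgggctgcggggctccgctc
POFUT4: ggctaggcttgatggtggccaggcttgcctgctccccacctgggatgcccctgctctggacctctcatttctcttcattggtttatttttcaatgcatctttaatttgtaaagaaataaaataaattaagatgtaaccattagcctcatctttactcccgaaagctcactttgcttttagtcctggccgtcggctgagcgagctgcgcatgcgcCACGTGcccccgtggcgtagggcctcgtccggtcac
PPP1R3C: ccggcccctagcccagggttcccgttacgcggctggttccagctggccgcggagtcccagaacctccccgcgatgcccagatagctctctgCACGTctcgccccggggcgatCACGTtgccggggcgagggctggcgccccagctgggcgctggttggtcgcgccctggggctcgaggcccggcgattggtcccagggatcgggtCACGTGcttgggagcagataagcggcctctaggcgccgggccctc

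Genes of glucose handling were called higher at uptake and along glycolysis. Of 21 genes listed for uptake and the first steps, 9 were called higher (42.9%) and 0 lower (0%), the same counts as without normoxia replicate 1. PFKFB3, which makes the activator of phosphofructokinase, was at 6.41, 7.81 and 7.44 in normoxia and 10.72, 10.85 and 10.48 in hypoxia, a rise of 3.46 ± 0.39. SLC2A3, a high-affinity glucose transporter, rose by 3.88 ± 0.46, and SLC2A1, the basal glucose transporter, by 1.87 ± 0.12 with an adjusted p of 2.7e-05. HK2, which phosphorylates glucose, rose by 2.47 ± 0.28 at the probe set used, but only 1 of its 3 probe sets was positive and another was called in the opposite direction. Of 14 genes of the lower part of the pathway and lactate, 3 were called higher (21.4%) and 0 lower (0%), and only 1 was still called when any of the FG hypoxia arrays was left out. Among them the enolase of neurons, ENO2, was at 6.76, 6.81 and 6.90 in normoxia and 9.85, 10.31 and 9.86 in hypoxia and rose by 3.18 ± 0.36. LDHA was at 0.83 ± 0.20 and PGK1 at 0.82 ± 0.21, while ENO1 (0.38 ± 0.21, adjusted p = 0.311) and GAPDH (0.19 ± 0.08, adjusted p = 0.173) were not called. LDHA was not called once FG hypoxia replicates 1, 2 or 3 was left out (adjusted p from 0.0549 to 0.0856), and its change without normoxia replicate 1 was 0.52. PGK1 was not called once FG hypoxia replicates 1, 2 or 3 was left out (adjusted p from 0.0567 to 0.0879), and its change without normoxia replicate 1 was 0.52. PDK1, the kinase that shuts pyruvate dehydrogenase, rose by 2.57 ± 0.37 and was the only rise among 16 genes of pyruvate fate (6.25%). DLAT, a subunit of the complex that PDK1 restrains, was the only fall (6.25%), at -0.75 ± 0.20 and not called once FG normoxia replicates 2 or 3 or FG hypoxia replicates 2 or 3 was left out (adjusted p from 0.0757 to 0.137).

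Glycogen genes moved in both directions. The regulatory subunit PPP1R3C, which brings protein phosphatase 1 to glycogen and favours its synthesis, was at 4.05, 5.43 and 5.34 in normoxia and 7.37, 7.61 and 7.72 in hypoxia and rose by 2.63 ± 0.32. Its hepatic relative PPP1R3B went from 6.35, 5.94 and 6.09 to 7.42, 7.99 and 8.48, a rise of 1.84 ± 0.30. PHKB, a subunit of the kinase that starts glycogen breakdown, fell by 0.97 ± 0.12, from 9.24, 9.36 and 9.40 to 8.30, 8.26 and 8.53. In all 3 genes the groups did not overlap. PPP1R3D, another targeting subunit, was at -1.05 ± 0.24 and not called once FG normoxia replicate 3 or FG hypoxia replicates 1 or 2 was left out (adjusted p from 0.0637 to 0.0889). Over the list of 18, 5 were called higher (27.8%) and 4 lower (22.2%), but only 2 and 2 without normoxia replicate 1. Rises in the glycogen list numbered 2 without FG normoxia replicate 2 or FG hypoxia replicates 2 or 3 and 3 without FG normoxia replicate 3. Falls in the glycogen list numbered 1 without FG normoxia replicate 3 or FG hypoxia replicates 1 or 2 and 2 without FG normoxia replicate 2.

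Among mitochondrial genes, BNIP3 rose by 2.34 ± 0.31 and BNIP3L, a related mitophagy receptor, by 1.84 ± 0.19, as did the calcium uniporter MCU by 0.87 ± 0.13 and FAM162A, a hypoxia-induced mitochondrial protein, by 1.25 ± 0.21. COXFA4L2 (older symbol NDUFA4L2), a hypoxia-induced protein linked to lower respiration, was higher at 1.89 ± 0.43 and not called once FG normoxia replicate 3 or FG hypoxia replicates 2 or 3 was left out (adjusted p from 0.0519 to 0.0599). These were the 5 called rises (31.2%) among 16 genes of mitophagy and of the switch in respiration, of which 0 were called lower and whose median was -0.08. The receptor FUNDC1 (-0.11 ± 0.27, adjusted p = 0.882) and the kinase PINK1 (-0.36 ± 0.20, adjusted p = 0.324) were not called. Of 33 complex I subunits, limma called 0 in either direction, with 1 at an unadjusted p below 0.05, and their median was -0.09. Of 75 mitochondrial ribosomal proteins only MRPS30 was called higher (0.85 ± 0.17) and none lower, and another of its 3 probe sets was called in the opposite direction.

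Among the SLC25 family, which carries metabolites across the inner mitochondrial membrane, 4 of 45 were called higher (8.89%) and 7 lower (15.6%). SLC25A13, an aspartate and glutamate carrier of the malate-aspartate shuttle, was at 8.88, 8.94 and 9.12 in normoxia and 6.65, 6.21 and 6.75 in hypoxia and fell by 2.44 ± 0.36. Its hypoxia arrays were all more than 2 units below its normoxia arrays, although only 2 of its 3 probe sets were negative. SLC25A12, the other carrier of that shuttle, fell by 0.78 ± 0.15 (from 8.31, 8.24 and 8.39 to 7.49, 7.49 and 7.61) in both of its probe sets. SLC25A44, a carrier of branched-chain amino acids, fell by 1.14 ± 0.21. The mitochondrial iron carriers went apart: SLC25A37, mitoferrin 1, was at 8.88, 8.87 and 8.83 in normoxia and 10.87, 11.01 and 10.61 in hypoxia and rose by 1.97 ± 0.29, while SLC25A28, mitoferrin 2, went from 7.86, 7.49 and 7.49 to 6.997, 6.93 and 6.89 and fell by 0.67 ± 0.11. SLC25A4, the ADP and ATP carrier of muscle and heart, rose by 0.88 ± 0.15. Rises in the SLC25 mitochondrial carriers list numbered 2 without FG normoxia replicates 2 or 3 or FG hypoxia replicates 1 or 2.

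Some genes that express the mitochondrial genome fell. Of 31 listed, 5 were called lower (16.1%, beside 6.47% of all genes) and 1 higher, and the fallen count ran from 1 (without FG hypoxia replicate 1) to 5 (without FG normoxia replicate 1) with 1 array left out. MTERF2, a mitochondrial transcription termination factor, was at 6.90, 6.90 and 7.11 in normoxia and 5.50, 5.16 and 6.04 in hypoxia and fell by 1.41 ± 0.21. Of 19 synthetases that load mitochondrial tRNAs, 5 were called lower (26.3%) and 0 higher, again from 2 (without FG hypoxia replicate 2) to 5 (without FG normoxia replicate 1). NARS2, for asparagine, fell by 0.83 ± 0.14 and EARS2, for glutamate, fell by 0.55 ± 0.11. Falls in the mitochondrial genome expression list numbered 1 without FG normoxia replicates 2 or 3 and 2 without FG hypoxia replicates 2 or 3. Falls in the mitochondrial aminoacyl-tRNA synthetases list numbered 2 without FG normoxia replicate 3 and 3 without FG normoxia replicate 2 or FG hypoxia replicates 1 or 3.

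Lipid genes were called in both directions. Of 29 genes of lipid droplets and uptake, 4 were called higher (13.8%) and 1 lower (3.45%), and of 19 of fatty acid synthesis, 1 was called higher (5.26%) and 2 lower (10.5%). HILPDA, an inhibitor of fat breakdown on lipid droplets, was at 6.96, 7.53 and 7.37 in normoxia and 10.30, 9.72 and 9.60 in hypoxia and rose by 2.59 ± 0.25. PLIN2, a coat protein of the droplets, rose by 2.10 ± 0.19, from 6.29, 6.78 and 6.94 to 8.502, 8.82 and 8.99, and VLDLR, a receptor for lipoproteins, by 1.84 ± 0.33. ELOVL6, which lengthens palmitate, was at 9.75, 9.39 and 9.87 in normoxia and 7.58, 7.53 and 7.74 in hypoxia and fell by 2.05 ± 0.30 in all 3 of its probe sets. FDPS, which makes farnesyl diphosphate, fell by 1.30 ± 0.26, from 11.73, 11.32 and 11.54 to 10.13, 9.91 and 10.64. INSIG2, which holds the sterol sensor in the endoplasmic reticulum, rose by 1.32 ± 0.21. Of 17 sterol synthesis genes, 7 were called lower (41.2%) and 0 higher, with a median of -0.95. That count fell to 4 without normoxia replicate 1, on which sterol genes were brightest, and ran from 1 (without FG hypoxia replicate 2) to 7 (without FG hypoxia replicate 3). ACAT2, for example, was at 11.15, 10.54 and 10.99 in normoxia and 9.499, 8.98 and 9.97 in hypoxia, and its fall of 1.41 ± 0.29 was not called once FG hypoxia replicate 2 was left out (adjusted p = 0.0508). IDI1, which isomerises isopentenyl diphosphate, was at -1.35 ± 0.35 and not called once FG normoxia replicates 1 or 3 or FG hypoxia replicates 1 or 2 was left out (adjusted p from 0.0675 to 0.137). Falls in the sterol synthesis list numbered 3 without FG normoxia replicate 3 or FG hypoxia replicate 1.

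Metallothioneins, small proteins that bind zinc and copper, rose in the 4 members described. They belong to a list of 29 genes of iron, copper and metallothioneins, of which 6 were called higher (20.7%) and 2 lower (6.9%). MT1X was at 8.53, 9.74 and 9.74 in normoxia and 10.62, 10.53 and 11.30 in hypoxia and rose by 1.48 ± 0.31, MT2A by 1.27 ± 0.27, MT1F by 1.14 ± 0.24 and MT1E by 0.57 ± 0.11. Normoxia replicate 1 was the lowest array for each of them, and without it the changes were 1.08, 0.91, 0.86 and 0.51. Probes of this family can bind each other's transcripts, so the values of single members are uncertain. STEAP4, a reductase of iron and copper, was at 10.02, 10.52 and 10.43 in normoxia and 9.19, 9.08 and 9.53 in hypoxia and fell by 1.06 ± 0.18. TFRC, the transferrin receptor, was at -0.80 ± 0.24 (adjusted p = 0.0584) and not called, and 1 of its 5 probe sets was called in the opposite direction.

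Collagen hydroxylases need oxygen as HIF hydroxylases do, and several rose. P4HA2, a prolyl hydroxylase of collagen, was at 7.77, 8.25 and 8.37 in normoxia and 9.77, 10.21 and 10.47 in hypoxia and rose by 2.02 ± 0.19. P4HA1, its main relative, rose by 1.30 ± 0.22, the lysyl hydroxylase PLOD1 by 0.96 ± 0.17 and PLOD2 by 1.27 ± 0.24. LOX, which cross-links collagen, rose by 2.42 ± 0.40, while LOXL1, which works mainly on elastin, fell by 0.87 ± 0.16, from 6.23, 5.86 and 5.83 to 4.87, 5.46 and 4.97. Of 19 listed, 6 were called higher (31.6%) and 3 lower (15.8%). The collagen chains COL4A1 and COL4A2 of the basement membrane rose by 1.53 ± 0.24 and 1.12 ± 0.15. FN1, the matrix glycoprotein fibronectin, was at 6.201, 6.46 and 7.505 in normoxia and 7.85, 8.43 and 8.71 in hypoxia and rose by 1.61 ± 0.31.

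**Figure D2:**
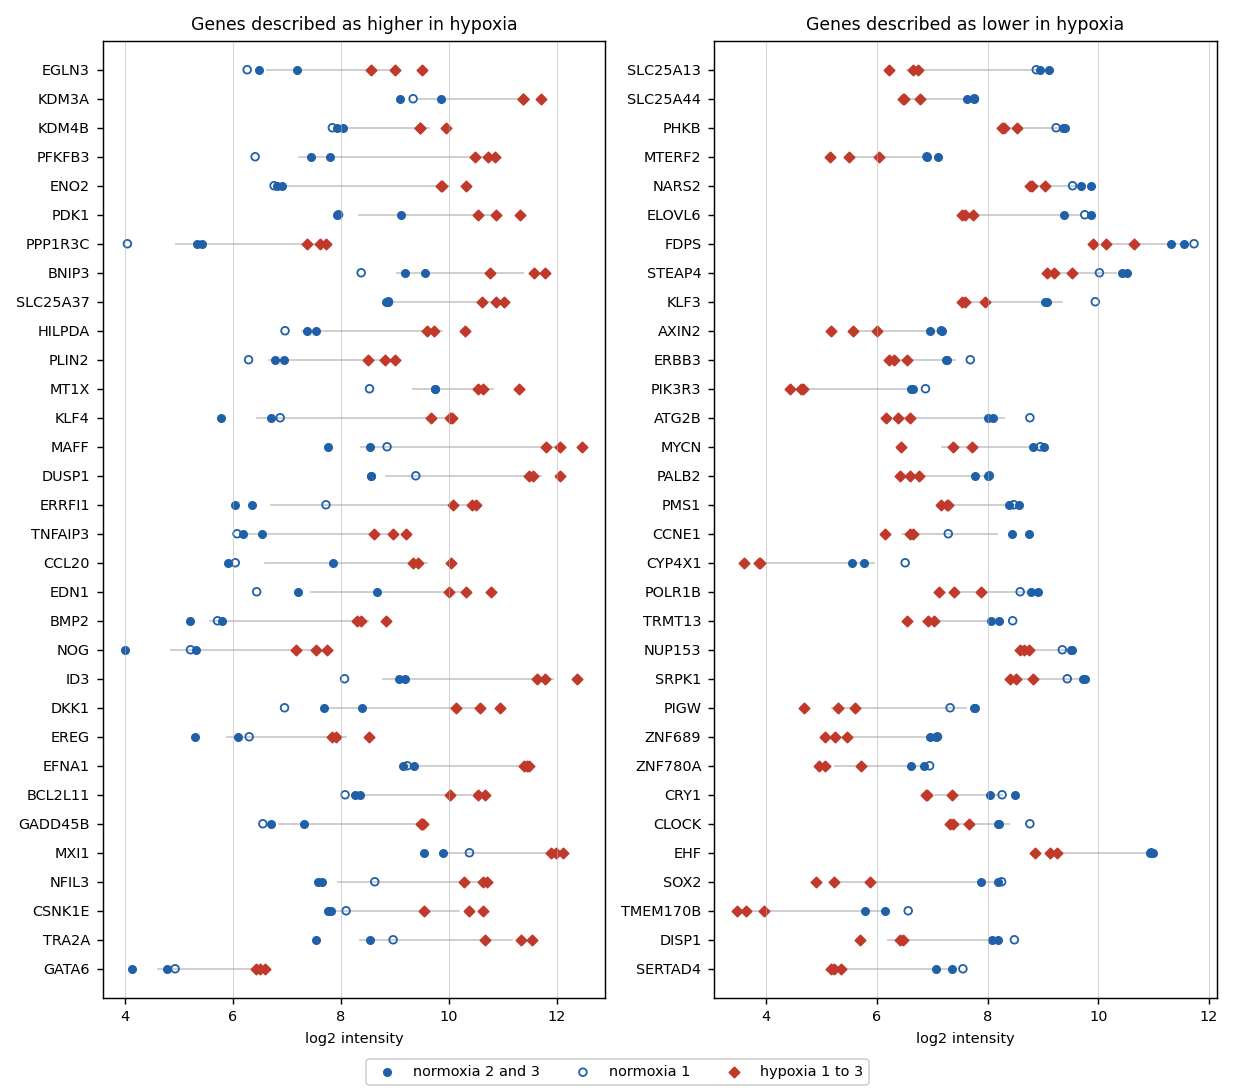
Log2 intensity of described genes on each FG array, with genes called higher on the left and genes called lower on the right. Blue circles are normoxia arrays (open for replicate 1), red diamonds hypoxia arrays, and the grey line joins the group means. In every gene drawn, the 3 hypoxia arrays lie on one side of the 3 normoxia arrays, as they do in 2111 of the 2117 called genes. The call of CCNE1 did not hold when most single arrays were left out.

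Subunits of AP-1, the dimer of FOS and JUN proteins that answers growth factors and stress, included some of the largest rises. Of 18 AP-1 and small MAF genes, 10 were called higher (55.6%) and 0 lower (0%) with all arrays, and as many without normoxia replicate 1. FOS was at 5.46, 7.17 and 6.38 in normoxia and 11.76, 11.72 and 11.002 in hypoxia, the largest change among them at 5.15 ± 0.45. JUN was at 7.98, 8.03 and 8.27 in normoxia and 11.02, 10.89 and 10.72 in hypoxia and rose by 2.78 ± 0.28 with 4 of 4 probe sets called. JUNB rose by 2.10 ± 0.18, ATF3 by 2.47 ± 0.14 and CREB5 by 2.51 ± 0.13. The small MAF proteins lack an activation domain and pair with NRF2 or with each other. MAFF was at 8.85, 7.75 and 8.53 in normoxia and 12.47, 12.06 and 11.80 in hypoxia and rose by 3.73 ± 0.36, and MAFG by 1.60 ± 0.24. CREB1, a member of the same leucine zipper class, was at 0.08 ± 0.14 and not called.

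Some feedback inhibitors of growth factor signalling rose. ERRFI1, which binds and blocks the EGF receptor kinase, was at 7.72, 6.04 and 6.34 in normoxia and 10.42, 10.49 and 10.07 in hypoxia. Its normoxia replicate 1 was the highest of the normoxia arrays, so the rise of 3.62 ± 0.41 became 4.13 without that array. DUSP1, a phosphatase of MAP kinases, was at 9.38, 8.55 and 8.56 in normoxia and 11.55, 12.06 and 11.48 in hypoxia and rose by 2.86 ± 0.28. DUSP5 and DUSP4, which act on ERK, rose by 2.32 ± 0.37 and 1.59 ± 0.28, and DUSP10, which acts on JNK and p38, by 1.33 ± 0.20. In all, 6 of 21 feedback genes were called higher (28.6%) and 0 lower. Of 21 immediate early factors of the EGR, KLF, IER and NR4A families, 7 were called higher (33.3%) and 1 lower (4.76%). KLF4, KLF10 and NR4A1 rose by 3.46 ± 0.29, 2.75 ± 0.23 and 1.45 ± 0.17. KLF4 was at 6.87, 5.78 and 6.70 in normoxia and 10.01, 10.06 and 9.66 in hypoxia. KLF3, a repressor of the same family, went the other way, from 9.94, 9.03 and 9.07 to 7.53, 7.59 and 7.94, and fell by 1.66 ± 0.27.

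The largest rises in the NF-kB list were in inhibitors of the pathway. TNFAIP3, the ubiquitin-editing enzyme A20, was at 6.08, 6.19 and 6.54 in normoxia and 8.96, 9.21 and 8.61 in hypoxia and rose by 2.66 ± 0.25. NFKBIA, which holds NF-kB in the cytoplasm, went from 9.52, 9.46 and 10.00 to 11.71, 11.95 and 11.29, and NFKBIE rose by 1.30 ± 0.15. The subunit NFKB2 was higher at 1.01 ± 0.23 but not called once FG normoxia replicate 2 or FG hypoxia replicates 1 or 2 was left out (adjusted p from 0.0648 to 0.0829), and REL was not called (0.71 ± 0.37, adjusted p = 0.287). Of 17 listed, 7 were called higher (41.2%) and 0 lower (0%), and the number ran from 4 (without FG hypoxia replicate 2) to 7 (without FG hypoxia replicate 3). Rises in the NF-kB subunits and inhibitors list numbered 4 without FG normoxia replicate 2.

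Chemokines and interleukins were called in both directions. Of 27 listed, 3 were called higher (11.1%) and 3 lower (11.1%). CXCL8, which draws neutrophils, was at 6.13, 6.01 and 7.40 in normoxia and 11.46, 10.78 and 10.42 in hypoxia and rose by 4.38 ± 0.49, and CCL20, which draws cells with the receptor CCR6, was at 6.04, 5.91 and 7.85 in normoxia and 9.42, 9.33 and 10.03 in hypoxia and rose by 2.99 ± 0.50. CXCL1, a close relative of CXCL8 at the same genomic cluster, was at 0.20 ± 0.36 (adjusted p = 0.823). CXCL6, also of that cluster, was at 7.68, 7.88 and 8.36 in normoxia and 6.58, 5.39 and 6.58 in hypoxia and was lower at -1.79 ± 0.49 but not called once FG normoxia replicates 1, 2 or 3 or FG hypoxia replicates 1, 2 or 3 was left out (adjusted p from 0.053 to 0.163). CCL28, an epithelial chemokine, fell by 0.95 ± 0.20 and was not called once FG hypoxia replicate 2 was left out (adjusted p = 0.0575). Of 22 angiogenic and vasoactive factors, 8 were called higher (36.4%) and 0 lower (0%). EDN2 and EDN1, the endothelin peptides that constrict vessels, rose by 3.83 ± 0.24 and 2.93 ± 0.46. EDN1 was at 6.44, 7.20 and 8.67 in normoxia and 10.31, 10.01 and 10.77 in hypoxia, with normoxia replicate 3 the nearest to the hypoxia arrays. ANGPTL4, a secreted regulator of lipid uptake and vessels, rose by 1.55 ± 0.12 and the growth factor PDGFB by 1.08 ± 0.15.

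The AP-1 letters TGAGTCA or TGACTCA stood in the 250 bases before the start of 3.28% of called rises, 2.78% of called falls and 3.18% of all genes tested with a promoter. CXCL8 and PLAUR, the urokinase receptor, which was at 7.52, 7.64 and 7.96 in normoxia and 11.42, 11.37 and 11.22 in hypoxia, are shown as 2 of the 22 called rises that hold them. CXCL8 lies at chr4:73740319-73740568 on the plus strand with 1 run in capitals 130 bases before the start, and PLAUR at chr19:43670170-43670419 on the minus strand with 1 run 179 bases before it.
CXCL8: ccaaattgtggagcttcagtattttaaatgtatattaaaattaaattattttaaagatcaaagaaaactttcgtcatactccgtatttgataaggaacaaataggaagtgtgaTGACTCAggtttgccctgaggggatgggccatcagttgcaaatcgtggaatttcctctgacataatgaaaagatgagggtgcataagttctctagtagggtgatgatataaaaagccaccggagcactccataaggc
PLAUR: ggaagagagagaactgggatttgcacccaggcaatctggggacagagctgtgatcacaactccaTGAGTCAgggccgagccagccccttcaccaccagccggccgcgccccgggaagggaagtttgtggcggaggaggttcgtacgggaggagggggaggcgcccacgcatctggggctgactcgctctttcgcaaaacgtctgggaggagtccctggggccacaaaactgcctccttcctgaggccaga
Other letters were counted in the same promoters. TGACGTCA, the cyclic AMP response element, stood in 3.73% of rises, 3.43% of falls and 2.38% of all, and GAANNTTC, from the heat shock element, in 4.03%, 4.36% and 4.77%. CCAAT, read by the factor NF-Y, stood in 27.9% of rises, 37.8% of falls and 34.1% of all, and the difference was not tested.

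Genes known to respond to YAP and TGF-beta rose in many cases. Of 23, 12 were called higher (52.2%) and 2 lower (8.7%) with a median of 0.87. Without normoxia replicate 1 the counts were 11 and 0, and the rises ran from 7 (without FG hypoxia replicate 2) to 11 (without FG normoxia replicate 1). CCN1 and CCN2, secreted matricellular proteins, rose by 3.35 ± 0.34 and 2.57 ± 0.34. CCN1 was at 6.37, 6.57 and 8.02 in normoxia and 10.50, 10.44 and 10.07 in hypoxia, and SMAD7, the inhibitory SMAD, went from 6.06, 5.796 and 5.98 to 7.62, 8.49 and 8.12. TAGLN, an actin-binding protein, was at 7.16, 9.29 and 10.57 in normoxia and 11.05, 10.90 and 11.95 in hypoxia, a wide spread over normoxia. Its change was 2.29 ± 0.65, or 1.37 without normoxia replicate 1, and it was not called once FG normoxia replicate 2 or FG hypoxia replicates 1, 2 or 3 was left out (adjusted p from 0.0924 to 0.136). F3, tissue factor, rose by 2.41 ± 0.24. Rises in the YAP and TGF-beta responsive genes list numbered 7 without FG normoxia replicate 2.

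In the BMP pathway both a ligand and its antagonist rose, and of 19 BMP and ID genes 5 were called higher (26.3%) and 0 lower (0%). BMP2 was at 5.71, 5.20 and 5.79 in normoxia and 8.30, 8.83 and 8.37 in hypoxia and rose by 2.93 ± 0.37, and NOG, noggin, which binds BMP2 and blocks it, was at 5.21, 4.01 and 5.32 in normoxia and 7.74, 7.17 and 7.54 in hypoxia and rose by 2.63 ± 0.30. FST, another antagonist, rose by 1.27 ± 0.26. The ID proteins, which block basic helix-loop-helix factors and are known BMP targets, included ID3 at 8.06, 9.06 and 9.19 in normoxia and 11.78, 12.37 and 11.62 in hypoxia, a rise of 3.15 ± 0.37, and ID2 at 2.32 ± 0.28. ID1 was at 0.53 ± 0.16 (adjusted p = 0.0645) and not called. Of 29 Wnt genes 1 was called higher (3.45%) and 4 lower (13.8%). The secreted inhibitor DKK1 was at 6.95, 7.68 and 8.38 in normoxia and 10.94, 10.13 and 10.58 in hypoxia and rose by 2.88 ± 0.40, while AXIN2, a known Wnt target and itself an inhibitor, was at 7.16, 7.18 and 6.96 in normoxia and 5.18, 5.57 and 6.01 in hypoxia and fell by 1.52 ± 0.27. ZNRF3, a ligase that removes Wnt receptors, fell by 0.81 ± 0.13. CTNNB1, beta-catenin, was at 0.11 ± 0.11 and not called.

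Of 16 genes of the EGF receptor family and its ligands, 2 were called higher (12.5%) and 3 lower (18.8%). The ligands went both ways. EREG and TGFA rose by 2.19 ± 0.28 and 1.29 ± 0.20, with EREG at 6.30, 5.30 and 6.10 in normoxia and 8.52, 7.91 and 7.83 in hypoxia, while the ligand BTC, betacellulin, was at 5.71, 5.57 and 6.19 in normoxia and 4.44, 3.99 and 4.22 in hypoxia and was lower at -1.60 ± 0.36 but not called once FG normoxia replicate 3 or FG hypoxia replicate 2 was left out (adjusted p from 0.0585 to 0.0739). ERBB3, a receptor of the family that signals through PI3 kinase, fell by 1.05 ± 0.15, from 7.69, 7.27 and 7.25 to 6.31, 6.22 and 6.54. LRIG1, which lowers receptor levels, was lower at -1.35 ± 0.37 but not called once FG normoxia replicates 1 or 3 or FG hypoxia replicates 1, 2 or 3 was left out (adjusted p from 0.0655 to 0.128). EGFR itself was at 0.81 ± 0.40 (adjusted p = 0.258). Regulatory subunits of PI3 kinase were among the falls: PIK3R3 was at 6.88, 6.65 and 6.62 in normoxia and 4.63, 4.43 and 4.66 in hypoxia and fell by 2.14 ± 0.37, and PIK3R1 fell by 0.88 ± 0.15. EFNA1, a membrane-bound ligand of Eph receptors, was at 9.22, 9.15 and 9.35 in normoxia and 11.45, 11.40 and 11.48 in hypoxia. Its rise of 2.20 ± 0.13 had an adjusted p of 1.94e-05, among the lowest of the comparison, and of 21 ephrins and Eph receptors 3 were called higher (14.3%) and 1 lower (4.76%).

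Some proteases, adhesion proteins, scaffolds and secreted proteins were among the rises. Of 28 genes of plasminogen activation and metalloproteinases, 7 were called higher (25%) and 1 lower (3.57%). ADAMTS1, a secreted protease of proteoglycans, was at 5.05, 5.42 and 6.06 in normoxia and 8.08, 8.22 and 7.78 in hypoxia and rose by 2.52 ± 0.23. ADAM8, a membrane protease, rose by 1.38 ± 0.23, and MMP9, which cuts basement membrane, by 0.93 ± 0.17, with all of its arrays dim. AKAP12, a scaffold of protein kinase A, was at 5.18, 5.67 and 7.21 in normoxia and 10.74, 10.85 and 10.98 in hypoxia, among the largest rises at 4.84 ± 0.44. ITGA2, the collagen-binding integrin chain, rose by 1.29 ± 0.23, the tight junction protein CLDN3 by 1.02 ± 0.16 and PTGS2, the inducible cyclooxygenase, by 2.29 ± 0.35. TFF1, a trefoil factor secreted with mucus, was at 5.11, 4.74 and 5.14 in normoxia and 6.70, 7.15 and 7.72 in hypoxia and rose by 2.20 ± 0.27. Of 23 integrins, 2 were called higher (8.7%) and 0 lower. Of 43 tight junction and desmosome genes, 3 were called higher (6.98%) and 1 lower (2.33%). Of 30 mucins, trefoil factors and surface markers, 2 were called higher (6.67%) and 0 lower. AKAP12 and PTGS2 were from a list of 30, with 3 called higher (10%) and 2 lower (6.67%, near the share of all genes). Rises in the plasminogen activation and metalloproteinases list numbered 4 without FG normoxia replicate 2 or FG hypoxia replicate 2.

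Of 29 heat shock chaperones, 4 were called higher (13.8%) and 0 lower (0%). HSPA6, an inducible HSP70 that most cells keep silent, was at 4.46, 5.29 and 5.38 in normoxia and 10.52, 10.37 and 9.94 in hypoxia, and DNAJB1, its HSP40 partner, rose by 3.34 ± 0.65. HSP70 genes are near copies of each other, so the value of HSPA6 alone is uncertain. HSP90AA1 (0.34 ± 0.23) and HSPD1 (-0.14 ± 0.11), both bright, were not called. Among the unfolded protein response genes 3 of 29 were called higher (10.3%) and 2 lower (6.9%, near the share of all genes). EIF2AK3, the kinase PERK, was lower at -0.86 ± 0.19 in 1 of its 2 probe sets and not called once FG hypoxia replicates 1 or 2 was left out (adjusted p from 0.0502 to 0.0568). A separate amino acid response list held 24 genes, ATF4, its targets and amino acid carriers. Of these, 5 were called higher (20.8%) and 1 lower (4.17%), with a median of 0.03. Without normoxia replicate 1 the counts were 7 (29.2%) and 0, with a median of 0.57. In that list PPP1R15A, which brings phosphatase back to eIF2 alpha, rose by 2.24 ± 0.44. CEBPG, a partner of ATF4, rose by 1.21 ± 0.22 at 1 of its 2 probe sets. ATF4 was at 13.14, 11.98 and 12.16 in normoxia and 13.05, 13.12 and 12.996 in hypoxia, with normoxia replicate 1 as high as the hypoxia arrays, and was called without it (0.99, adjusted p = 0.0313) and not with it (0.63 ± 0.31, 0.25).

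Of 19 BCL2 family genes, 6 were called higher (31.6%) and 0 lower (0%), and they include BNIP3 and BNIP3L. BCL2L11, which encodes the death-promoting protein BIM, was at 8.07, 8.36 and 8.26 in normoxia and 10.53, 10.66 and 10.01 in hypoxia and rose by 2.17 ± 0.29, positive in 6 of 7 probe sets. BIK rose by 1.65 ± 0.25. MCL1, which protects from death, was higher at 0.72 ± 0.19 but not called once FG normoxia replicates 2 or 3 or FG hypoxia replicates 1, 2 or 3 was left out (adjusted p from 0.0667 to 0.108), and BCL2L1 was at 0.16 ± 0.14 and not called. Of 33 autophagy genes, 4 were called higher (12.1%) and 2 lower (6.06%, near the share of all genes). GABARAPL1, ATG12 and MAP1LC3B, parts of the conjugation system for the autophagosome membrane, rose by 1.24 ± 0.15, 1.08 ± 0.11 and 0.91 ± 0.14. ATG2B, which moves lipid to that membrane, was at 8.76, 8.09 and 8.01 in normoxia and 6.17, 6.38 and 6.60 in hypoxia and fell by 1.90 ± 0.26, and PIK3R4, a subunit of the PI3 kinase that starts the process, fell by 1.00 ± 0.20.

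Of 27 genes listed for cell cycle inhibitors and the MYC network, 8 were called higher (29.6%) and 2 lower (7.41%), with a median of -0.04. The list as drawn up also names the D-type cyclins, which are not inhibitors. MXI1, which competes with MYC for its partner MAX, was at 10.38, 9.88 and 9.53 in normoxia and 11.89, 12.12 and 11.98 in hypoxia and rose by 2.07 ± 0.26, and MXD1, of the same class, rose by 1.27 ± 0.21. MYCN was at 8.95, 9.02 and 8.82 in normoxia and 6.43, 7.37 and 7.72 in hypoxia and fell by 1.76 ± 0.29, although 3 of its 10 probe sets had the other sign. MAX was lower at -1.11 ± 0.25 but not called once FG hypoxia replicates 1 or 2 was left out (adjusted p from 0.0571 to 0.0625). MYC was at 10.61, 9.98 and 9.95 in normoxia and 10.29, 10.03 and 9.57 in hypoxia and was not called (-0.22 ± 0.26, adjusted p = 0.707). Growth arrest genes were among the rises: GADD45A by 2.98 ± 0.36, GADD45B by 2.64 ± 0.20 and BTG1 by 1.59 ± 0.21. GADD45B was at 6.55, 6.70 and 7.32 in normoxia and 9.49, 9.48 and 9.51 in hypoxia. CDKN1A, the inhibitor p21, was higher at 1.55 ± 0.40 but not called once FG normoxia replicates 2 or 3 or FG hypoxia replicates 2 or 3 was left out (adjusted p from 0.0593 to 0.114). Rises in the cell cycle inhibitors and MYC network list numbered 5 without FG hypoxia replicate 2.

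How many DNA replication genes were called lower depended on normoxia replicate 1. Of 47 replication genes, 4 were called lower with all arrays (8.51%, near the 6.47% of all genes) and 21 without that array (44.7%, beside 6.16%). None was called higher in either case, and the median moved from -0.55 to -1.01. Without FG hypoxia replicate 2 0 were called. PCNA, the sliding clamp of DNA polymerase, was at 10.30, 11.83 and 11.98 in normoxia and 10.17, 9.57 and 9.91 in hypoxia, and normoxia replicate 1 lay with the hypoxia arrays. PCNA was at -1.49 ± 0.50 (adjusted p = 0.0914) with all arrays and at -2.02 (0.0193) without that one. CCNE1, cyclin E1, was at 7.29, 8.44 and 8.75 in normoxia and 6.65, 6.14 and 6.59 in hypoxia. Its value of -1.70 ± 0.45 was called at 1 of its 2 probe sets, and it was not called once FG normoxia replicates 2 or 3 or FG hypoxia replicates 1, 2 or 3 was left out (adjusted p from 0.0692 to 0.132). For mitosis genes 0 of 31 were called with all arrays by limma, with 0 at an unadjusted p below 0.05. Without normoxia replicate 1, 5 were called lower (16.1%) and the median went from -0.12 to -0.80. MKI67, a marker of dividing cells, was at 7.18, 9.502 and 9.43 in normoxia and 9.51, 9.08 and 9.11 in hypoxia, with normoxia replicate 1 alone far below the rest. Falls in the DNA replication list numbered 0 without FG normoxia replicates 2 or 3 and 1 without FG hypoxia replicate 3 and 2 without FG hypoxia replicate 1.

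**Figure D3:**
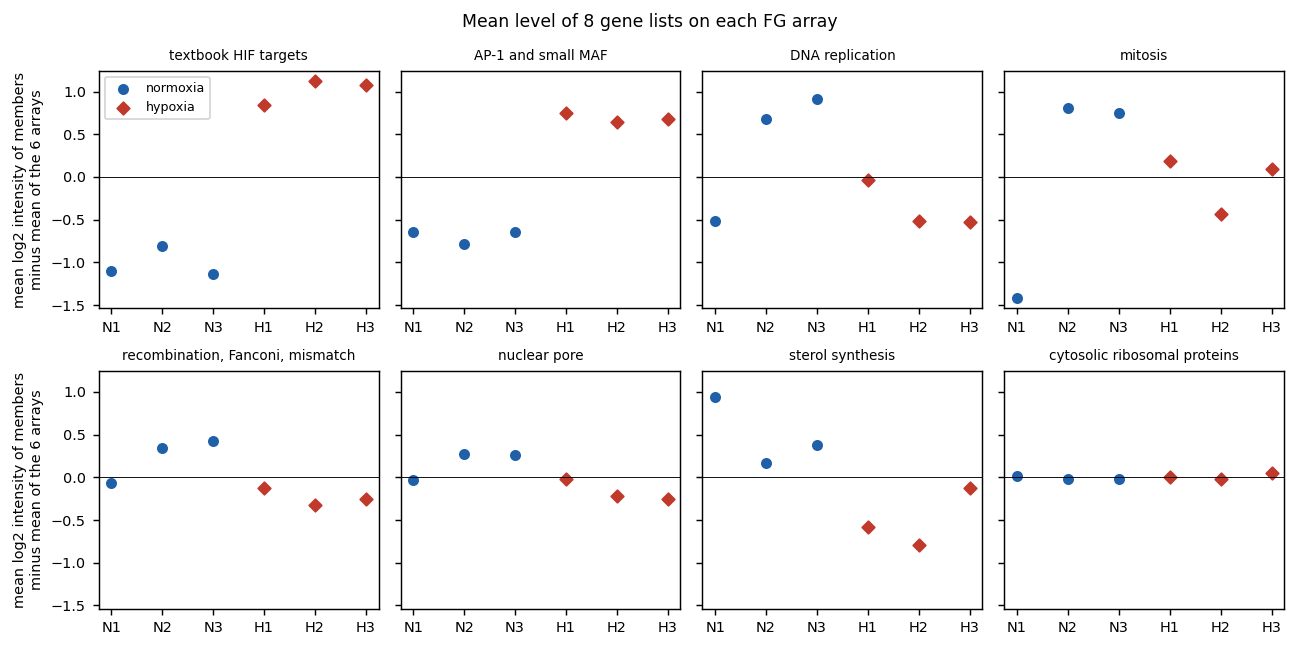
Mean log2 intensity of the members of 8 gene lists on each FG array, minus the mean of the 6 arrays (N1 to N3 normoxia in blue, H1 to H3 hypoxia in red). Mitosis genes stood at -1.41 on normoxia replicate 1 and at 0.81 and 0.75 on replicates 2 and 3, while HIF targets were below 0 on all normoxia arrays and above 0 on all hypoxia arrays.

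Falls among repair genes were called with and without that array. Of 27 genes of homologous recombination, the Fanconi pathway and mismatch repair, 8 (29.6%) were called lower and none higher, or 11 without normoxia replicate 1. With 1 array left out the count ran from 2 (without FG hypoxia replicate 2) to 11 (without FG normoxia replicate 1). PALB2, which brings BRCA2 to broken DNA, was at 8.03, 7.77 and 8.001 in normoxia and 6.59, 6.41 and 6.77 in hypoxia and fell by 1.35 ± 0.20. PMS1, a MutL protein, was at 8.47, 8.39 and 8.56 in normoxia and 7.15, 7.29 and 7.27 in hypoxia and fell by 1.24 ± 0.18, negative in 4 of its 5 probe sets. For both genes normoxia replicate 1 lay close to the other normoxia arrays. NBN, part of the complex that senses breaks, was lower at -0.76 ± 0.17 but only 1 of its 5 probe sets was negative, and it was not called once FG normoxia replicate 2 or FG hypoxia replicate 2 was left out (adjusted p from 0.0535 to 0.0679). Falls in the homologous recombination, Fanconi and mismatch repair list numbered 3 without FG normoxia replicates 2 or 3 and 4 without FG hypoxia replicate 1 and 5 without FG hypoxia replicate 3.

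Genes of RNA and protein production fell in several places, while no cytosolic ribosomal protein was called. Of 56 cytosolic ribosomal proteins 0 were called by limma, with 2 at an unadjusted p below 0.05, and their median was 0.02. Of 44 ribosome biogenesis genes, 6 were called lower (13.6%) and none higher. The largest subunits of RNA polymerase I, which transcribes ribosomal RNA, were among them: POLR1B was at 8.59, 8.78 and 8.91 in normoxia and 7.87, 7.39 and 7.12 in hypoxia and fell by 1.30 ± 0.21, and POLR1A fell by 0.90 ± 0.15, from 7.37, 7.24 and 7.35 to 6.72, 6.42 and 6.12. NAT10, an acetyltransferase of ribosomal RNA, fell by 0.59 ± 0.11. NPM1 and FBL, abundant nucleolar proteins, were at 0.01 ± 0.07 and 0.06 ± 0.08 and not called. Of 35 genes of tRNA modification, 6 were called lower (17.1%) and 2 higher (5.71%, near the share of all genes). QTRT2, a subunit of the enzyme that inserts queuine, fell by 0.91 ± 0.10, while TRMT11, a guanosine methyltransferase, rose by 0.72 ± 0.15. TRMT13, another tRNA methyltransferase, fell by 1.40 ± 0.15 at 1 of its 2 probe sets. Falls in the ribosome biogenesis list numbered 3 without FG normoxia replicates 2 or 3 or FG hypoxia replicates 2 or 3. Falls in the tRNA modification list numbered 2 without FG hypoxia replicate 2 and 3 without FG normoxia replicate 2.

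Nuclear pore genes fell at 8 of 30 members (26.7%), 10 without normoxia replicate 1, and from 5 (without FG hypoxia replicate 2) to 10 (without FG normoxia replicate 1) with 1 array left out. NUP62, of the central channel, fell by 0.47 ± 0.09 and NUP42, on the cytoplasmic face, was at 7.35, 7.44 and 7.65 in normoxia and 6.47, 6.66 and 6.79 in hypoxia and fell by 0.84 ± 0.16. NUP153, of the nuclear basket, fell by 0.79 ± 0.11 at the probe set used, with 1 of its 3 probe sets negative. TPR and SEC13, bright members, were at 0.02 ± 0.22 and -0.10 ± 0.18 and not called. Of 20 SR splicing factors and CLK kinases, 4 were called higher (20%) and 3 lower (15%). TRA2A, an activator of exon inclusion, was at 8.96, 8.54 and 7.53 in normoxia and 11.32, 11.53 and 10.66 in hypoxia and rose by 2.82 ± 0.55 in all 5 probe sets, and CLK3, a kinase of SR proteins, rose by 1.62 ± 0.18 at 1 of its 2 probe sets. SRPK1, the cytoplasmic kinase of SR proteins, went from 9.44, 9.75 and 9.72 to 8.82, 8.51 and 8.41 and fell by 1.06 ± 0.18. Falls in the nuclear pore list numbered 5 without FG normoxia replicate 2. Rises in the SR splicing factors and CLK kinases list numbered 2 without FG hypoxia replicate 2.

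Zinc finger genes named ZNF, most of them repressors of the KRAB class, were the largest list. Of 466, 63 were called lower (13.5%, against 6.47% of all genes) and 17 higher (3.65%, against 4.24%). Without normoxia replicate 1 the counts were 54 and 16, and without FG hypoxia replicate 2 25 and 9. The median over the list was -0.11. ZNF736 was at 6.29, 6.16 and 6.16 in normoxia and 5.09, 4.77 and 5.21 in hypoxia and fell by 1.18 ± 0.14, and ZNF780A fell by 1.56 ± 0.18, from 6.95, 6.85 and 6.61 to 5.06, 4.96 and 5.70. ZNF689 fell by 1.78 ± 0.28. ZNF26 rose by 1.03 ± 0.11, from 7.14, 6.83 and 6.79 to 7.91, 7.99 and 7.93. ZNF367, which was the largest fall of the comparison, was at 5.57, 7.63 and 7.95 in normoxia and 4.43, 3.99 and 4.07 in hypoxia and was not called once FG hypoxia replicate 2 was left out (adjusted p = 0.0519). Rises in the ZNF zinc finger genes list numbered 9 without FG normoxia replicate 2. Falls in the ZNF zinc finger genes list numbered 31 without FG hypoxia replicate 1 and 40 without FG normoxia replicate 2.

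Of 21 circadian clock genes, 5 were called higher (23.8%) and 2 lower (9.52%). NFIL3, a repressor of clock output, was at 8.62, 7.58 and 7.66 in normoxia and 10.70, 10.63 and 10.27 in hypoxia and rose by 2.58 ± 0.30, and CSNK1E, the casein kinase that marks PER proteins, was at 8.09, 7.81 and 7.75 in normoxia and 10.63, 10.37 and 9.54 in hypoxia and rose by 2.29 ± 0.30. CRY1, a repressor in the core loop, was at 8.26, 8.05 and 8.49 in normoxia and 7.36, 6.90 and 6.89 in hypoxia and fell by 1.22 ± 0.21, and CLOCK, the activator, fell by 0.93 ± 0.16. RORA, which drives the loop and is a known HIF target, was higher at 1.91 ± 0.46 in 8 of 8 probe sets but not called once FG normoxia replicates 2 or 3 or FG hypoxia replicates 1, 2 or 3 was left out (adjusted p from 0.0528 to 0.0821). PER2 was at -0.50 ± 0.33 and not called. Rises in the circadian clock list numbered 2 without FG normoxia replicate 2 or FG hypoxia replicates 1 or 2 and 3 without FG normoxia replicate 3 or FG hypoxia replicate 3.

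Of 27 transcription factors of pancreas and stem cells, 3 were called higher (11.1%) and 2 lower (7.41%). GATA6, which marks the classical type of pancreatic tumour, was at 4.93, 4.13 and 4.79 in normoxia and 6.51, 6.42 and 6.60 in hypoxia and rose by 1.90 ± 0.19. SOX9, a factor of duct and progenitor cells, rose by 1.81 ± 0.37. SOX2, a factor of pluripotent cells, was at 8.25, 7.89 and 8.19 in normoxia and 4.90, 5.22 and 5.87 in hypoxia, which put its 3 hypoxia arrays at least 2 units below its normoxia arrays, and fell by 2.78 ± 0.41. EHF, an epithelial ETS factor, was at 10.96, 10.93 and 10.99 in normoxia and 9.13, 8.85 and 9.25 in hypoxia and fell by 1.88 ± 0.22, in 4 of its 6 probe sets. OVOL1, which represses mesenchymal genes, rose by 2.35 ± 0.20. It was from a list of 21 regulators of the epithelial to mesenchymal transition and mesenchymal markers. In that list 4 were called higher (19%) and 0 lower, or 5 and 0 without normoxia replicate 1. The other called rises were FN1, above, and SNAI2 and FOXC2, whose values are not described here. The count was 2 without FG normoxia replicate 2 or FG hypoxia replicates 1 or 2, so not all 4 belong to the core. CDH1 and VIM, the usual epithelial and mesenchymal markers, were at 0.55 ± 0.31 and 0.30 ± 0.25 (adjusted p = 0.34 and 0.55), neither called.

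Further large falls concerned genes of other roles. Of 28 genes of GPI anchor synthesis, 4 were called lower (14.3%) and 0 higher. TMEM170B, a membrane protein, was at 6.56, 5.79 and 6.14 in normoxia and 3.47, 3.63 and 3.96 in hypoxia and fell by 2.48 ± 0.22. DISP1, which releases lipid-bound Hedgehog ligands, was at 8.48, 8.18 and 8.08 in normoxia and 5.69, 6.46 and 6.42 in hypoxia and fell by 2.06 ± 0.23, and WDR35, a part of the transport system of cilia, fell by 2.07 ± 0.33. PIGW, an acyltransferase of GPI anchor synthesis, was at 7.32, 7.75 and 7.77 in normoxia and 5.60, 4.69 and 5.29 in hypoxia and fell by 2.42 ± 0.40. CYP4X1, an orphan cytochrome, fell by 2.15 ± 0.24, and SLC35B4, a carrier of sugar nucleotides, fell by 2.20 ± 0.33. ARID5B, a DNA-binding partner of the demethylase PHF2, fell by 2.34 ± 0.46. VAV3, a guanine nucleotide exchange factor, fell by 2.28 ± 0.46, with hypoxia arrays at 6.05, 6.74 and 7.59. RHOBTB1 was lower at -2.27 ± 0.48 but not called once FG normoxia replicate 2 or FG hypoxia replicates 1 or 2 was left out (adjusted p from 0.0526 to 0.0638). Falls in the GPI anchor synthesis list numbered 2 without FG normoxia replicates 2 or 3 or FG hypoxia replicates 1 or 2.

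Both lines were fitted in 1 model, and the difference of their hypoxia effects was tested as an interaction. It passed for 5 genes (0.0253% of those tested), while 1427 had an unadjusted p below 0.05. In 3 of the 5 the FG effect was itself called. ATF3 rose by 2.47 ± 0.14 in FG, from 6.31, 5.89 and 5.95 to 8.62, 8.47 and 8.47, and was at 0.18 in L3.6pl (interaction adjusted p = 0.00259). CREB5 was at 4.17, 4.16 and 4.12 in normoxia and 6.80, 6.65 and 6.52 in hypoxia in FG and changed by 0.25 in L3.6pl (0.00259). SERTAD4, a nuclear protein of the SERTA family, was at 7.55, 7.07 and 7.36 in normoxia and 5.23, 5.18 and 5.35 in hypoxia in FG, where it fell by 2.08 ± 0.16, and changed by -0.07 in L3.6pl (0.0193). The other two, MAOA and RAB31, were at -0.29 ± 0.19 and 0.17 ± 0.09 in FG and not called there. The number of such genes ran from 2 without FG hypoxia replicate 2 to 23 without FG normoxia replicate 3.

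This test left out a possible pairing between the lines, which the labels do not state. FG and L3.6pl arrays of the same condition and number deviated from their group means together, with correlations over genes of 0.735, 0.528 and 0.675 for the normoxia pairs and 0.358, 0.444 and 0.462 for the hypoxia pairs. Differently numbered pairs of 1 condition ran from -0.653 to 0.262. Pairs that shared neither condition nor number reached 0.454 (FG normoxia 1 with L3.6pl hypoxia 2), so the hypoxia values do not single out a pairing. With the 6 same-numbered pairs within a condition as a replicate block, chosen after seeing the data, limma called the difference for 703 genes. These were 3.55% of those tested, with all 5 above among them. Of the 703, 315 were called in FG, beside 2117 of all 19775 genes. The count of 703 rested on single pairs: it ran from 16 without the normoxia pair 2 to 1239 without the hypoxia pair 3. It was 54 without the hypoxia pair 2, 80 without the normoxia pair 3, 271 without the normoxia pair 1 and 334 without the hypoxia pair 1. Of the 187 genes called in FG and described here, 45 had an adjusted p below 0.05 with that block. Those 187 were picked in part for large FG changes, and the difference uses the same FG arrays, so the overlap is favoured by the choice. The lowest of the 45 among genes not called without the block were SMAD7, EDN2 and ID3, at 0.00403 each. SMAD7 rose by 2.13 ± 0.20 in FG and was at 0.18 in L3.6pl, EDN2 by 3.83 ± 0.24 against 1.63, and ID3 by 3.15 ± 0.37 against 0.58. Without the block their adjusted p was 0.0532, 0.0633 and 0.131.

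**Figure D4:**
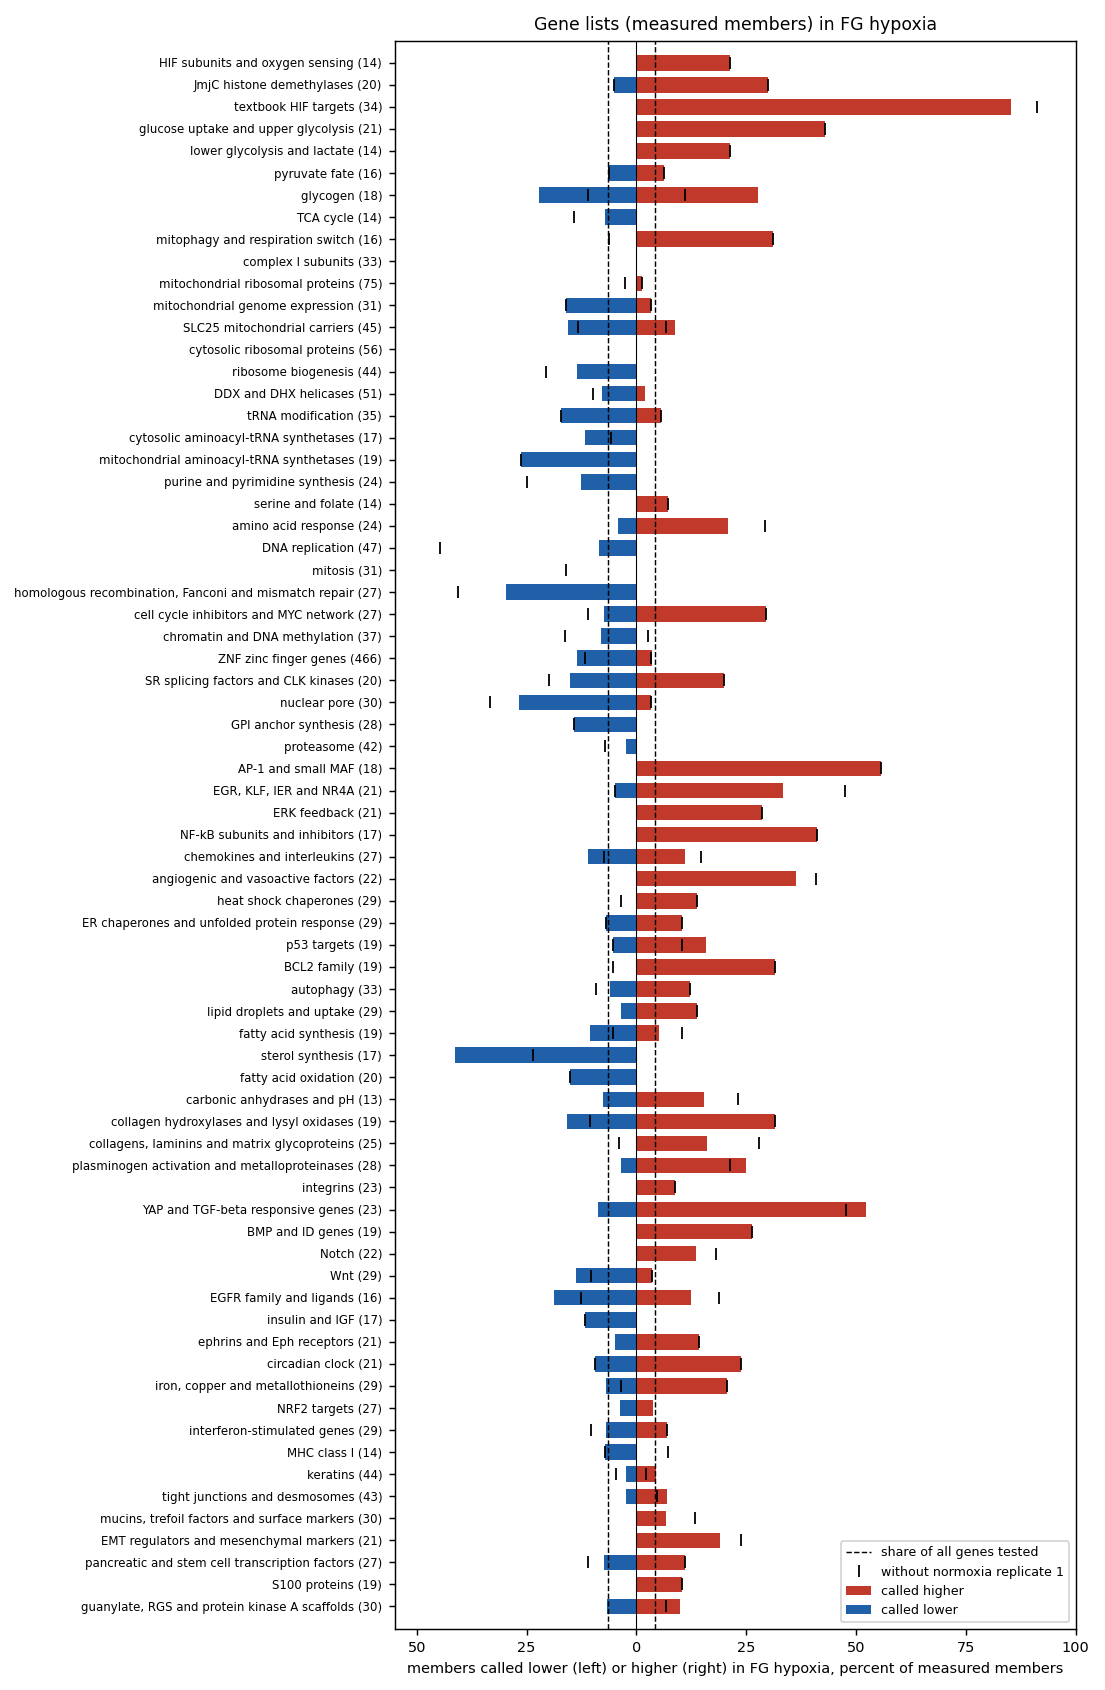
Percent of the measured members of each of 71 gene lists (number measured in brackets) called higher (red, right) or lower (blue, left) in FG hypoxia, with dashed lines at the shares of all genes tested (4.24% and 6.47%) and black ticks for the fit without normoxia replicate 1. HIF targets reach the largest share of rises, and sterol synthesis the largest share of falls with all arrays, where DNA replication is the largest without normoxia replicate 1.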

How the data were processed

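RNA on 12 arrays, from 2 pancreatic carcinoma lines, was read with 54675 probe sets per array. The deposited intensities are on a linear scale, and the submitters' processing notes name RMA without a version; how the log2 output of RMA became linear is not stated. RMA shares quantile normalization across arrays, so a shift of all genes at once would not be seen.

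Intensities were turned to log2. The 41091 probe sets annotated to exactly 1 gene were kept, with symbols updated through a GRCh38.p14 gene table (41037 matched by gene number), and each of 19775 genes was read from its brightest probe set by the mean of the 12 arrays. Group means of the 12 arrays were fitted in limma 3.58.1 (R 4.3.3) with empirical Bayes moderation (8 residual and 2.72 prior degrees of freedom), and adjusted p-values are Benjamini-Hochberg over all genes, two-sided, with a call below 0.05. The number of arrays limits the precision. On simulated data with 100 genes changed by a log2 size of 1 and 100 by 2, the FG comparison recovered 75% and 96%. The simulated noise was independent for each gene and array. Deviations that many genes of an array share, as on FG normoxia replicate 1, were not simulated, so these shares do not measure recovery in the real data.

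The genes named were drawn from the 15 largest non-overlapping called changes in each direction, up to 5 called and 2 bright uncalled members of each list, and a fixed set of hypoxia, cell cycle and lineage genes. Not all of these are described. The rises of ANKRD37, GDF15 and TCIM and the fall of TRIM2, all among the largest, are left out, as are some list members. The members and lists were chosen with earlier results of these data known. COL1A1, CXCL6, IDI1, JUN, MAFG, MAX, MXD1, PLOD2, RIOX1, SLC25A12, TAGLN and ZNF689 are named outside that rule and were chosen after their values were seen, and MAOA and RAB31 are named for the test between lines. FUNDC1 and PINK1 are named, uncalled, for a statement on their class. Same-numbered arrays of both lines correlated above 0.1 in their deviations in all 6 pairs within a condition, so the difference between lines is also given with these pairs as a block; the labels give only the shared numbers. Promoters are RefSeq sequences of GRCh38.p14. Alternatives left out arrays, changed the arrays in the fit, the block, the normalization, the filter, the pseudocount, the probe set rule, the variance model and the threshold.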

Additional observations from a re-analysis of the deposited data

Results flagged for a closer look

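In 5 genes the hypoxia effect of FG differed from that of L3.6pl by the interaction term in limma. ATF3, a stress-induced transcription factor, differed with an adjusted p of 0.00259, changing by 2.47 ± 0.14 in FG and 0.18 in L3.6pl. CREB5, of the same leucine zipper class, differed with an adjusted p of 0.00259, at 2.51 ± 0.13 against 0.25. SERTAD4 differed at 0.0193, with -2.08 ± 0.16 in FG against -0.07. MAOA, which oxidises amine transmitters, differed at 0.0289, with -0.29 ± 0.19 against 1.93, and RAB31, a GTPase of vesicle transport, at 0.0289, with 0.17 ± 0.09 against 1.27. In the last 2 the rise was in L3.6pl. With same-numbered arrays of both lines as a replicate block within each condition, all 5 were called as well. Groups of 3 arrays are too small for a test of single arrays that lie far out.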

How the results depend on the processing

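Leaving out the 3 arrays that an earlier analysis of these data found to stand apart (the first normoxia array of both lines and hypoxia replicate 3 of L3.6pl) gave 3871 genes called, 1396 higher and 2475 lower, and 19 for the difference between lines. Array weights gave 5729, 2255 and 3474, and 421 for the difference. An adjusted p below 0.01 left 860, of which 410 were higher and 450 lower, 239 at least 2-fold lower, and 2 for the difference. The mean of all probe sets left 253 at least 2-fold lower. The difference between lines was called for 13 genes with that mean, 12 with cyclic loess, 10 each with the filter on dim genes, with log2(intensity + 16) and with trend and robust moderation, and 3 with the probe set brightest in FG. With a replicate block within each condition, across lines (added after seeing the data), it was called for 703. With 1 FG array left out, calls ran from 1029 to 2074, rises from 481 to 856, falls from 548 to 1218, rises of at least 2-fold from 323 to 413, such falls from 265 to 508, and differences between lines from 2 to 23. The cause was not tested.

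Replicate numbers are shared by the groups, but the labels do not say whether they pair FG hypoxia with FG normoxia arrays. Deviations from the group means correlated at -0.217, -0.129 and 0.259 for numbers 1 to 3, with no common sign, which does not settle it. With a replicate block, 1139 genes were called higher and 1853 lower, and 13 for the difference between lines. Of the 187 described calls 187 held with the block, and 5 of 36 uncalled genes were called.

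Of 187 called genes described, 164 were still called without FG hypoxia replicate 2 and 184 without FG normoxia replicate 1. The called genes that turned sign (MRPS30, NUP153 and TRMT13) did so only under another probe set rule. With array weights, CREB1 was at -0.0021, HIF1A was at 0.0088, KDM5B was at 0.194, MKI67 was at -0.189, MYC was at 0.0069, NPM1 was at -0.0159, TPR was at -0.15. With 3 arrays that stand apart left out, CTNNB1 was at -0.0185, HIF1A was at 0.0235, KDM5B was at 0.223, MKI67 was at -0.232, NPM1 was at -0.0199, TPR was at -0.0503. With the mean of all probe sets, HSPD1 was at 0.257, MKI67 was at -0.0959, MRPS30 was at -0.104, NUP153 was at 0.257, PER2 was at 0.666, RAB31 was at -0.122, TFRC was at 0.385, TPR was at -0.203. With cyclic loess, KDM5B was at 0.0687, NPM1 was at -0.0108. With the probe set brightest in FG, TRMT13 was at 0.603. With 1 FG array left out, genes that were not called and turned sign ran as follows: COL3A1 from -0.91 to 0.0214, CTNNB1 from -0.0185 to 0.206, CXCL1 from -0.323 to 0.499, FUNDC1 from -0.376 to 0.107, HIF1A from -0.248 to 0.0235, KDM2A from 0.0000 to 0.334, KDM5B from -0.161 to 0.223, MKI67 from -0.232 to 0.93, NPM1 from -0.0199 to 0.0362, TPR from -0.0772 to 0.155.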

Other observations

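In the Notch pathway 3 of 22 genes were called higher (13.6%, beside 4.24% of all genes) and 0 lower. They were HES1, a repressor that Notch switches on, at 7.77, 7.83 and 7.73 in normoxia and 9.44, 9.56 and 9.11 in hypoxia (a rise of 1.59 ± 0.14), HES4 (1.02 ± 0.15) and RBPJ, the DNA-binding partner of Notch (1.13 ± 0.22 in 3 of 3 probe sets). Of 29 interferon-stimulated genes, 2 were called higher and 2 lower, shares of 6.9% each beside 4.24% and 6.47% of all genes, and no rise was called without FG hypoxia replicate 2 or FG normoxia replicate 2. IFIT3, which binds viral RNA complexes, was at 6.99, 6.73 and 7.07 in normoxia and 5.66, 5.44 and 5.90 in hypoxia and fell by 1.26 ± 0.18, and OAS1, a sensor of double-stranded RNA, fell by 0.75 ± 0.15. S100P, a calcium-binding protein abundant in pancreatic cancer, rose by 0.73 ± 0.14 from already bright arrays at 12.85, 12.56 and 12.74.

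The 71 lists together held 2270 of the measured genes, and 417 of these were called, beside 2117 of all 19775 genes tested (10.7%). The lists were chosen with earlier results of these data known, so a larger share in them is not a result. In 6 lists both the share of rises and the share of falls were at or below those of all genes, namely complex I subunits, mitochondrial and cytosolic ribosomal proteins, mitosis, the proteasome and NRF2 targets.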
